A study of Mus musculus with 48 samples.

Results

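The arcuate nucleus of the mouse hypothalamus was compared between late in the light phase (zeitgeber time 10, ZT10, in hours after lights on) and late in the dark phase (ZT22). The comparison covered 12 of the 48 RNA-seq libraries of the series: every arcuate library labelled ZT10 or ZT22, 6 at each time, with 3 Control and 3 HepDKO libraries per time. All mice were males of 10 to 12 weeks carrying floxed alleles of both Rev-erba and Rev-erbb on a C57Bl/6J background, fed chow and kept in 12-hour light and 12-hour dark at 27 degrees C. Control mice had received AAV8-TBG-EGFP and HepDKO mice AAV8-TBG-Cre by tail vein at 6 to 10 weeks of age, 2 to 4 weeks before collection. The TBG promoter directs expression to hepatocytes, so HepDKO names a deletion in the liver, and the labels give no deletion in the brain of either group. Each library came from pooled micropunches, of 3 mice by the protocol and of 3 to 4 mice by the series description, so p-values measure the spread between pools. The question was which arcuate genes and pathways differed between late light and late dark, and whether the same differences were seen with and without the liver deletion.

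In mammalian cells the circadian clock is a loop of transcription and translation. The activators BMAL1 (encoded by Arntl) and CLOCK bind E-boxes and switch on the Period and Cryptochrome genes, the REV-ERB genes Nr1d1 and Nr1d2, and output factors such as Dbp, whose products repress the loop or carry it to other genes. REV-ERB proteins repress Arntl through ROR elements. The arcuate nucleus lies at the base of the third ventricle beside the median eminence and holds the Agrp/Npy and Pomc/Cartpt neurons that govern feeding, neuroendocrine neurons, and tanycytes that line the ventricle. Nocturnal mice eat mostly in the dark, so ZT10 falls at the end of the rest period and ZT22 near the end of the active period.

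Counts assigned to genes ranged from 15483922 to 18550117 per library, and 15783 of 25229 gene symbols passed the filter on low counts. Agrp, Npy, Pomc, Cartpt and Tac2 were detected in all 12 libraries. A pair of libraries stood apart. HepDKO ZT10 replicate 3 held 1914 Xist counts, against 0 to 6 in the others, with Ddx3y from the Y chromosome still at 1512 counts (1672 to 2082 in the others), although the labels give males. Control ZT22 replicate 1 lay at -36.02 on the first principal component (-10.1 to 12.8 in the others) and had 896 counts of the dopamine transporter gene Slc6a3, against 96 to 187. Results were therefore also computed without these libraries.

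Over both genotypes, 174 genes differed between the times, which is 1.1% of the genes tested (edgeR quasi-likelihood test on the time term of a model with genotype, Benjamini-Hochberg adjusted p under 0.05, the rule behind every "called" gene here unless another is named). Of these, 75 were higher at ZT10 and 99 higher at ZT22, 0.475% and 0.627% of the genes tested. An unadjusted p under 0.05 was found for 2347 genes, where 789 would be expected with no difference in any gene. The differences were small: the median fold was 1.19 among genes higher at ZT10 and 1.17 among genes higher at ZT22, and 8 and 6 genes respectively exceeded 1.5-fold. The 6 libraries of one time all lay above the 6 of the other for 41 of the 75 and 51 of the 99, as for 0.653% and 0.678% of all genes. Calling the genes on these same libraries favours the counts of 41 and 51. Without the pair of libraries that stood apart, 281 genes were called (1.76%), and in a fit over all 24 arcuate libraries, with ZT4 and ZT16 sharing the estimate of spread, 36 were called (0.224%). The direction of all 174 held in every fit run, but each fit reused libraries on which they were called, which favours this. The count of called genes depended on single libraries, from 43 without HepDKO ZT10 replicate 1 to 661 without Control ZT22 replicate 2. It was 54 without HepDKO ZT22 replicate 2, 72 without Control ZT10 replicate 1, 76 without HepDKO ZT22 replicate 1, 81 without HepDKO ZT10 replicate 2, 86 without Control ZT10 replicate 2, 88 without Control ZT22 replicate 3 and 283 without Control ZT22 replicate 1. Under every alternative fit and every left-out library, 25 genes stayed called: Dbp, Nr1d1, Nr1d2, Per1, Per2, Per3, Ifit3, Lfng, Sfrp5 and Trib1 higher at ZT10, and Arntl, Cldn5, Cxcl12, Dtx4, Flt1, Gpr179, Grik1, Id2, Kank1, Mmp14, Npas3, Plat, Sgpp2, Tmem44 and Trim9 higher at ZT22.

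Dbp and Nr1d1, both genes of the clock, had the lowest p-values of all genes called higher at ZT10. Of 24 clock genes listed, all of them tested, 8 were higher at ZT10 (33.3%, against 0.475% of all genes) and 2 were higher at ZT22 (8.33%, against 0.627%), and 14 did not pass. Dbp, a PAR bZIP output factor of the clock, differed most. Its lowest, median and highest levels were 43.8, 46.7 and 52.4 CPM (counts scaled to the size and composition of each library) at ZT10 and 18.3, 20.9 and 24.1 CPM at ZT22. The groups did not overlap, and the log2 difference, ZT10 over ZT22 here and throughout, was 1.16 ± 0.063 (± gives the standard error here and for every other log2 difference, adjusted p = 2.09e-11). Its relative Tef was called as well, at 308, 321 and 328 CPM against 266, 284 and 301 CPM, a difference of only 0.18 ± 0.033 (adjusted p = 0.0082), while Hlf was at 0.18 ± 0.049 with an adjusted p of 0.072.

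Among the repressors of the loop, both REV-ERB genes were higher at ZT10 in the arcuate nucleus. Nr1d1 measured 55.8, 53.3 and 56.5 CPM in the Control and 60.6, 61.2 and 55.3 CPM in the HepDKO libraries at ZT10. At ZT22 it measured 38.1, 37.6 and 41.6 CPM in Control and 38.6, 36.01 and 39.2 CPM in HepDKO, so no ZT22 library reached any ZT10 library in either genotype (log2 difference 0.57 ± 0.048, adjusted p = 1.53e-07). These levels do not check the deletion, which was made in hepatocytes. Nr1d2 ran from 131 to 157 CPM at ZT10 and from 98.3 to 126 CPM at ZT22, also without overlap (0.43 ± 0.047, adjusted p = 1.02e-05).

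All 3 Period genes, which encode the repressors that feed back on BMAL1 and CLOCK, were called higher at ZT10. Per2 had lowest, median and highest levels of 40.5, 42.7 and 45.1 CPM at ZT10 and 28.8, 31.6 and 34.99 CPM at ZT22 (0.42 ± 0.053, adjusted p = 7.54e-05). Per3 had 67.1, 74.6 and 82.8 CPM against 51.4, 55.2 and 58.1 CPM (0.43 ± 0.047, adjusted p = 8.46e-06). Neither gene showed overlap between the times. Per1 had 70.2, 73.5 and 81.9 CPM against 54.6, 57.8 and 71.4 CPM and overlapped through Control ZT22 replicate 1, its highest dark-phase library (0.33 ± 0.06, adjusted p = 0.0095). Ciart, whose product CHRONO represses the same activators, was at 10.7, 12.3 and 14.7 CPM and 6.33, 7.42 and 10.5 CPM (0.69 ± 0.11, adjusted p = 0.0032). The Cryptochromes, partners of the Period proteins, did not pass: Cry1 was at 0.08 ± 0.067 and Cry2 at 0.02 ± 0.045.

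The activators ran the other way. Arntl had lowest, median and highest levels of 21.6, 23.01 and 25.1 CPM at ZT10 and 28.9, 31.9 and 36.01 CPM at ZT22, with every ZT22 library above every ZT10 library (-0.48 ± 0.062, adjusted p = 8.47e-05). Clock was called at the edge of the threshold (-0.17 ± 0.04, adjusted p = 0.045) and stayed called in only 2 of 12 fits that left out a library, with adjusted p from 0.019 to 0.13. With a trend over exon length removed from each library, it was at -0.097 (adjusted p = 0.29). Its paralog Npas2 had a log2 difference of -0.39 ± 0.10 and an adjusted p of 0.065. The remaining members lay between -0.25 (Nfil3) and 0.24 (Bhlhe41, adjusted p = 0.053). They included Bhlhe40, Bhlhe41, Nfil3, the ROR receptor genes Rora and Rorb, the kinase genes Csnk1d and Csnk1e, and the ubiquitin ligase gene Fbxl21. Some clock genes gained calls in other fits. Of 12 fits that left out a library and 10 alternative fits, Bhlhe41 was called in 3 and 6. Hlf was called in 2 and 5, and Npas2 in 2 and 4.

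**Figure D1:**
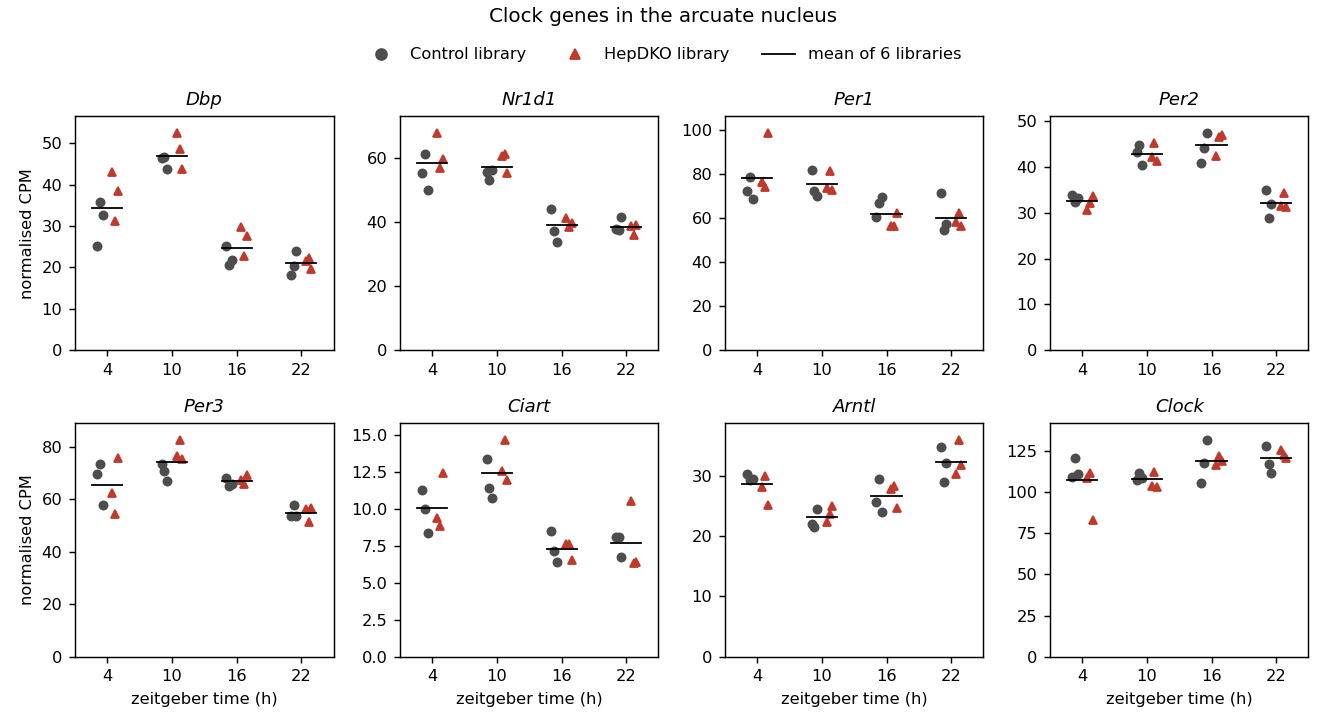
Normalised CPM of 8 clock genes in the 24 arcuate libraries, against zeitgeber time in hours. Circles are Control libraries, triangles HepDKO libraries and lines the mean of the 6 libraries at each time. Dbp, Nr1d1, Per2 and Per3 show no overlap between ZT10 and ZT22, and Arntl is higher at ZT22 than at ZT10.

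The 12 further arcuate libraries, from ZT4 and ZT16, show where ZT10 and ZT22 fell among 4 times; these levels carry no test and all 24 libraries were scaled together. Dbp averaged 34.4 ± 6.21 CPM (SD, n = 6 per time) 4 hours after lights on, then 46.9 ± 3.23, 24.6 ± 3.53 and 21.01 ± 2.06 CPM at the 3 later times. Nr1d1 averaged 58.5 ± 6.00, 57.04 ± 3.13, 39.00 ± 3.47 and 38.5 ± 1.86 CPM in the same order, so ZT4 and ZT10 differed by less than their spread, as did ZT16 and ZT22. Per2 averaged 32.6 ± 1.21, 42.8 ± 1.90, 44.7 ± 2.68 and 32.03 ± 2.22 CPM, high at ZT10 and ZT16. The Arntl means were 28.7 ± 1.93, 23.2 ± 1.42, 26.6 ± 2.22 and 32.3 ± 2.65 CPM, lowest at ZT10. Of the 75 genes called higher at ZT10, 62 had their highest mean of the 4 times at ZT10 and 67 their lowest at ZT22. Of the 99 called higher at ZT22, 76 were highest at ZT22 and 78 lowest at ZT10. The choice of genes favours these counts.

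The promoters of 4 of the called clock genes are printed because these windows hold elements through which the loop is known to act. Of the 24 clock genes 19 had a window, and an E-box was found for 5 of them, a D-box for 1 and a ROR element for 2. Each line runs 5′ to 3′ on the gene's strand over 250 bases before to 50 after a RefSeq transcription start (GRCm38.p6). For a gene with several starts, the window with the most copies of the marked element was printed. The starts used for Per1 and Arntl lie inside these genes, which begin at 69095108 and 113178471. The coordinates are chr3:95882179-95882478 on the minus strand for Ciart, chr11:69098699-69098998 on the plus strand for Per1, chr4:151044616-151044915 on the minus strand for Per3 and chr7:113207261-113207560 on the plus strand for Arntl. Capitals mark the E-box CACGTG in Ciart and Per1, the D-box TTATGTAA in Per3, where PAR bZIP factors such as DBP bind, and the ROR element TAGGTCA in Arntl. Both strands were searched.
Ciart: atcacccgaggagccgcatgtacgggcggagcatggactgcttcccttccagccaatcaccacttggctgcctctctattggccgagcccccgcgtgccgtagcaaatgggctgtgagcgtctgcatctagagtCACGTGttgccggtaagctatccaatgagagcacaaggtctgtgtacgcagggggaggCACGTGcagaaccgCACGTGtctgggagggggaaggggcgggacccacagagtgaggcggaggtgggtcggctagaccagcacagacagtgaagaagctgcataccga
Per1: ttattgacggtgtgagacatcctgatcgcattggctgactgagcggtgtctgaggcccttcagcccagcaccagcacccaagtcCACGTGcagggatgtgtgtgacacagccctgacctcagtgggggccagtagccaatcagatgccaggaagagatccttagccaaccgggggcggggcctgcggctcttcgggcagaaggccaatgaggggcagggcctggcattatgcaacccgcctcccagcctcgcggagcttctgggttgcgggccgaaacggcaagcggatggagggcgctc
Per3: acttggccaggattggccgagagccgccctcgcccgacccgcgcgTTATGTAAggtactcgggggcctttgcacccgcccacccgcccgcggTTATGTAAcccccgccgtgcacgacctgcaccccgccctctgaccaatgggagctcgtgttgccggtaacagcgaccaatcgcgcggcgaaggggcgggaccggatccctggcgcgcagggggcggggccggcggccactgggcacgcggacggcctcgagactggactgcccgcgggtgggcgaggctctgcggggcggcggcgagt
Arntl: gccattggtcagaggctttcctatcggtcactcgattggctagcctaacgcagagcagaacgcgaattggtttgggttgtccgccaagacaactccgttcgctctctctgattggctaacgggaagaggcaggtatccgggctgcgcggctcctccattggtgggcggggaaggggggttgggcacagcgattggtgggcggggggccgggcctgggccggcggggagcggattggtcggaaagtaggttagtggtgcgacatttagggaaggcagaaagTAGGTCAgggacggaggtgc
The window of Ciart held 3 E-boxes, starting 116, 58 and 44 bases before the start site, and that of Per1 held 1, 166 bases before it. Per3 had 2 D-boxes, 205 and 158 bases before the start site used, and Arntl 1 ROR element, 30 bases after the start site used.

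RefSeq gave a window for 60 of the 75 genes higher at ZT10 and 78 of the 99 higher at ZT22, some with several starts. An E-box was in 14 of 70 windows of the genes higher at ZT10 (20%), in 5 of 103 windows of the genes higher at ZT22 (4.85%) and in 1476 of 15745 windows of all genes tested (9.37%). The D-box was in 2 of the 70 windows (2.86%), in 0.971% of the ZT22 windows and in 0.622% of all windows. The ROR element was in 0 of the 70 windows, in 3.88% of the ZT22 windows and in 1.8% of all windows. Other elements were searched as well. In the same order, the shares were 8.57%, 3.88% and 5.12% for the E-prime box and 2.86%, 1.94% and 2.79% for the cAMP response element. They were 1.43%, 0% and 0.476% for the heat-shock element and 5.71%, 2.91% and 2.88% for the interferon-stimulated element. The glucocorticoid element was in 2.86%, 0% and 0.362%. These shares are descriptions of letters in a short window, and the clock genes are among the genes counted.

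Outside the clock, the genes higher at ZT10 with the lowest p-values were of several kinds. Ifit3, an antiviral gene induced by interferon, was at 18.7, 20.7 and 23.8 CPM against 9.04, 11.1 and 13.3 CPM, with no overlap (0.89 ± 0.087, adjusted p = 1.92e-06). Its near-identical neighbour Ifit3b was also called (0.75 ± 0.11, adjusted p = 5.21e-04); how the counting divided reads between such copies is not given in the sources used here, so the pair counts as 1 uncertain signal. Of 21 interferon-induced genes tested, only these 2 were called (9.52%, against 0.475% of all genes), and Ifit1 was at 0.40 ± 0.16 (adjusted p = 0.25). Sfrp5, a secreted inhibitor of Wnt signalling, was at 21.99, 25.2 and 26.8 CPM against 15.3, 18.1 and 20.6 CPM (0.48 ± 0.077, adjusted p = 0.0017). Lfng, a glycosyltransferase that modifies Notch receptors, was at 37.2, 40.2 and 42.9 against 26.5, 30.99 and 35.2 CPM (0.37 ± 0.056, adjusted p = 7.11e-04). Neither of these overlapped between the times. Trib1, a pseudokinase that recruits a ubiquitin ligase, was called at 0.51 ± 0.093 (adjusted p = 0.007) and the vesicle transport gene Sft2d2 at 0.31 ± 0.045 (adjusted p = 4.86e-04).

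Some larger folds rested on few counts. Inmt, which encodes an amine N-methyltransferase, was at 2.38, 3.00 and 3.82 CPM against 0.869, 1.17 and 2.22 CPM (1.19 ± 0.22, adjusted p = 0.0082). Cyp2a5, a cytochrome P450 gene with close paralogs, had the largest difference of all called genes at 2.21 ± 0.42 (adjusted p = 0.01), from levels of 1.03 to 1.68 CPM at ZT10 and 0 to 0.499 CPM at ZT22. Txnip, which encodes an inhibitor of thioredoxin and of glucose uptake, was at 24.9, 27.01 and 33.2 CPM against 13.6, 17.00 and 25.1 CPM (0.60 ± 0.11, adjusted p = 0.016). Its lowest ZT10 library, at 24.9 CPM, lay just under Control ZT22 replicate 1, at 25.1 CPM.

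Cldn5, Mmp14, Flt1, Plat, Cxcl12 and Edn1 were among the genes called higher at ZT22. Cldn5, a tight-junction gene of the blood-brain barrier, was at 12.4, 16.2 and 18.3 CPM at ZT10 and 19.8, 30.1 and 34.1 CPM at ZT22, without overlap (-0.86 ± 0.12, adjusted p = 0.0038). Mmp14, a membrane-bound matrix metalloproteinase, was at 23.8, 27.6 and 30.3 against 33.8, 49.7 and 56.1 CPM (-0.79 ± 0.097, adjusted p = 0.0016). Flt1, a receptor for vascular endothelial growth factor, was at 47.9, 50.5 and 63.6 against 58.3, 66.6 and 70.9 CPM, and Control ZT10 replicate 3 reached into the ZT22 range (-0.33 ± 0.056, adjusted p = 0.0038). Plat, the tissue plasminogen activator gene (-0.40 ± 0.066, adjusted p = 0.0032), and the chemokine gene Cxcl12 (-0.33 ± 0.057, adjusted p = 0.0038) were called too. Edn1, which encodes the vasoconstrictor endothelin 1, was at 0.545, 0.755 and 1.12 CPM against 1.63, 1.95 and 6.74 CPM (-1.81 ± 0.36, adjusted p = 0.028). Control ZT22 replicate 1 was its highest library, and without it the difference was -1.33 (adjusted p = 0.0044). Edn1 stayed called in 4 of 12 fits that left out a library, with adjusted p from 0.0032 to 0.10.

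Of the 10 endothelial markers, 2 were called higher at ZT22, Flt1 and Cldn5 (20%, against 0.627% of all genes), and 8 did not pass. Of the 10, 3 had a positive difference, and the median log2 difference was -0.18, against 0.00069 over all genes. The median was -0.11 without Control ZT22 replicate 1, and Pecam1 was then at -0.15. In all 12 libraries Pecam1 was at -0.30 ± 0.13 and Tek at -0.21 ± 0.099, with adjusted p of 0.32 and 0.32. The summed level of the list ran from 264 to 336 CPM at ZT10 and from 298 to 342 CPM at ZT22, with no marker at 0 in all 12 libraries. In tissue libraries, fewer cells of a type and less RNA per cell cannot be told apart, and the part of vessel content in these differences was not tested.

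The other leading genes at ZT22 were of several kinds. Kank1, which links adhesion sites to the cytoskeleton, was at 32.3, 34.3 and 40.8 CPM against 46.9, 48.02 and 49.9 CPM (-0.46 ± 0.052, adjusted p = 1.37e-05). Id2, an inhibitor of bHLH transcription factors, was at 40.6, 44.1 and 47.4 against 55.3, 61.3 and 73.6 CPM (-0.49 ± 0.058, adjusted p = 4.47e-05). It was the only called member of 10 Id and bHLH genes (10%, against 0.627%; 2 were called without Control ZT22 replicate 2, against 2.21%), and its relatives Id3 and Id4 were at 0.20 ± 0.084 and 0.11 ± 0.041. Trim9, a ubiquitin ligase of neurons (-0.33 ± 0.042, adjusted p = 7.54e-05), and Dcc, a receptor for netrin in axon guidance (-0.33 ± 0.059, adjusted p = 0.0053), were higher at ZT22 in every library than in any at ZT10. The same held for the orphan receptor gene Gpr179 (-0.50 ± 0.065), the scaffold gene Sash1 (-0.29 ± 0.037), Tmem44 (-0.39 ± 0.063), the Toll-like receptor partner Tril (-0.23 ± 0.039) and the sphingosine-1-phosphate phosphatase Sgpp2 (-0.42 ± 0.071), with adjusted p between 7.54e-05 and 0.0034.

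**Figure D2:**
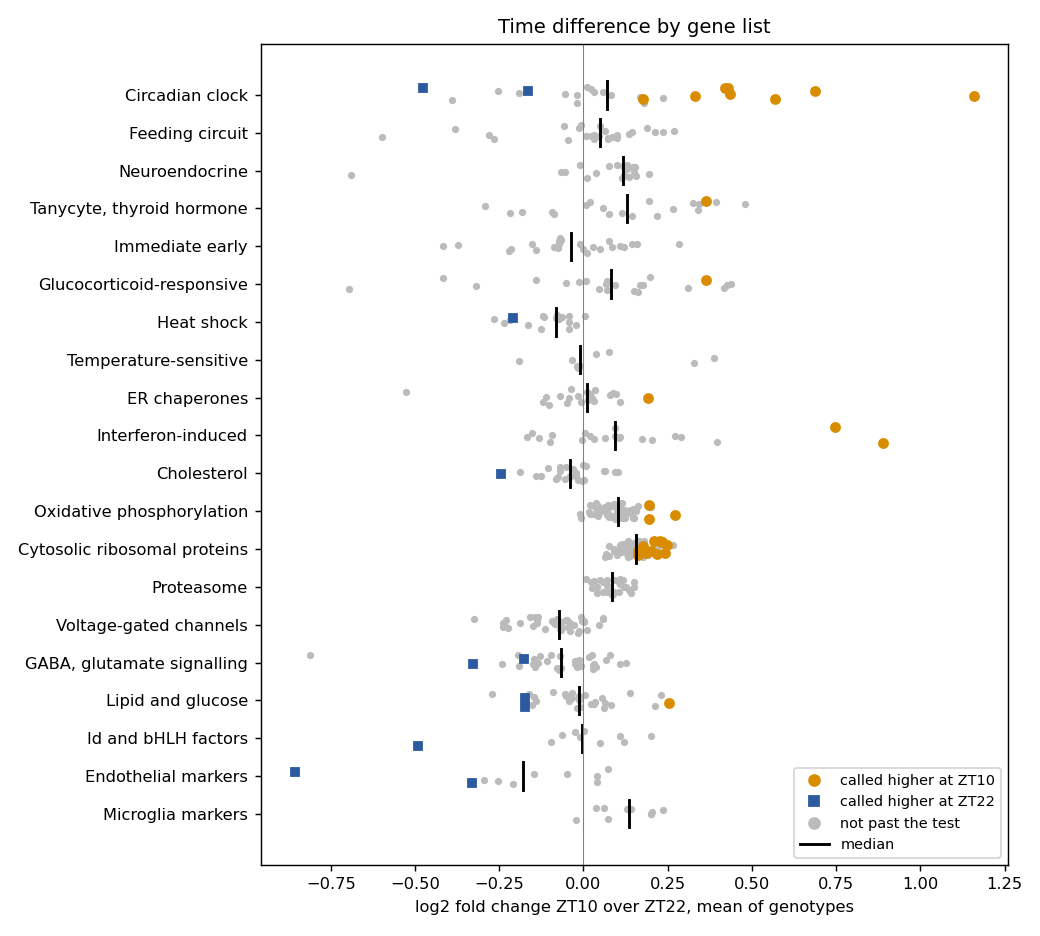
Log2 difference, ZT10 over ZT22 averaged over genotypes, of every tested member of 18 pathway and 2 marker lists. Large orange circles are genes called higher at ZT10, blue squares genes called higher at ZT22, grey circles genes not past the test, and lines the list medians. Clock genes were called on both sides, and the 72 ribosomal protein genes all lie above 0.

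Some genes for ribosomal proteins and for respiration were called higher at ZT10, all with small differences. Of 72 tested genes for cytosolic ribosomal proteins, 13 were called higher at ZT10 (18.1%, against 0.475%), none higher at ZT22, and all 72 had a positive difference (median 0.16, against 0.00069 over all genes, of which 7933 of 15783 were positive). Rps12 was at 139, 149.7 and 169.6 CPM at ZT10 and 121, 126 and 140.0 CPM at ZT22 (0.24 ± 0.044, adjusted p = 0.0073), with Control ZT22 replicate 2 inside the ZT10 range. Rplp1, a protein of the ribosomal stalk (0.23 ± 0.043), and Rpl27a (0.21 ± 0.042) had adjusted p of 0.01 and 0.015. Of 64 genes of oxidative phosphorylation, 3 were called higher at ZT10 (4.69%) and 62 were positive (median 0.10). The 3 encode subunits of the ATP synthase: Atp5g1 (0.19 ± 0.041, adjusted p = 0.019), Atp5k (0.27 ± 0.058, adjusted p = 0.023) and Atp5e (0.20 ± 0.046, adjusted p = 0.039). Outside the list, Atp5md, another ATP synthase gene (0.24 ± 0.056, adjusted p = 0.039), and the complex I subunit gene Ndufa13 (0.20 ± 0.049, adjusted p = 0.045) were called higher at ZT10 as well. None of the 31 proteasome genes was called, although all 31 were positive (median 0.084) and 1 was called higher at ZT10 without Control ZT22 replicate 2 (against 1.94% of all genes in that fit), with Psma4 at 0.15 ± 0.043 (adjusted p = 0.085) and Psmd6 at 0.13 ± 0.04 (adjusted p = 0.12). The ribosomal count was unstable: it was 2 without HepDKO ZT10 replicate 1, 3 without HepDKO ZT22 replicate 2 and 4 without Control ZT10 replicate 1. It was 7 without Control ZT22 replicate 3, 8 without Control ZT10 replicate 2, HepDKO ZT10 replicate 2 or either HepDKO ZT22 replicate 1 or 3, and 50 without Control ZT22 replicate 2 (1.94% of all genes in that fit). In the fit over 24 arcuate libraries it was 0, with the median at 0.16. The count for oxidative phosphorylation was 0 without HepDKO ZT10 replicate 1 or HepDKO ZT22 replicate 1 or 2, and 1 without Control ZT10 replicate 1 or 2 or Control ZT22 replicate 3. It was 5 without Control ZT22 replicate 1 (against 0.821% of all genes), 10 without Control ZT22 replicate 2, and 0 in the fit over 24 libraries.

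None of 40 listed genes for voltage-gated and other neuronal ion channels was called, and 34 had a negative difference (median -0.072). Without Control ZT22 replicate 2, 6 were called higher at ZT22 (against 2.21% of all genes in that fit), without Control ZT22 replicate 1 there were 2, and without HepDKO ZT22 replicate 1 or 3 there was 1. Outside the list, the potassium channel subunit gene Kcns3 was called higher at ZT10 (0.54 ± 0.13, adjusted p = 0.045) and the voltage-gated channel gene Kcna6 higher at ZT22 (-0.15 ± 0.038, adjusted p = 0.049). The calcium channel gene Cacna1e was at -0.22 ± 0.054 (adjusted p = 0.051) and the BK potassium channel gene Kcnma1 at -0.24 ± 0.059 (adjusted p = 0.051). Of 10 alternative fits with other settings, 7 called Cacna1e and 5 called Kcnma1. Each was called in 2 of 12 fits that left out a library. Of 33 genes of GABA and glutamate signalling, 2 were called, both higher at ZT22 (6.06%, against 0.627%). The kainate receptor gene Grik1 was at 22.1, 23.6 and 26.00 CPM at ZT10 against 25.1, 30.9 and 32.7 CPM at ZT22 (-0.33 ± 0.059, adjusted p = 0.0062), and the metabotropic receptor gene Grm7 differed by -0.18 ± 0.043 (adjusted p = 0.045). Grm7 stayed called in 3 of 12 fits that left out a library, and Grik1 in all 12. Grik2 was at -0.15 ± 0.039 with an adjusted p of 0.065. The count was 5 without Control ZT22 replicate 2. It was 1 without Control ZT10 replicate 1 or 2, Control ZT22 replicate 3, HepDKO ZT10 replicate 1 or 2 or HepDKO ZT22 replicate 1 or 2, and 1 in the fit over 24 libraries. The 15 GABA receptor genes had a median of -0.012, with 6 positive.

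Transcript length moved with these lists. The median summed exon length (GENCODE M21, GRCm38) was 2333 bases among genes called higher at ZT10, 10322 bases among genes called higher at ZT22 and 4340 bases among all genes tested. With all genes divided into 5 equal groups by exon length, the median log2 difference was 0.056 in the shortest group (55 to 2399 bases) and -0.049 in the longest (7478 to 123179 bases). The shortest group held 37 genes called higher at ZT10 and 2 called higher at ZT22, and the longest 4 and 63. In each library, the median level of the shortest group minus that of the longest, relative to the mean of the 12 libraries, ran from 0.0095 to 0.14 log2 units at ZT10 and from -0.13 to 0.032 at ZT22. Only Control ZT22 replicate 2 was positive at ZT22. With the trend over exon length removed from each library, 68 genes were called (0.431%), 36 higher at ZT10 and 32 higher at ZT22, of median lengths 4912 and 5580 bases. In that fit 3 ribosomal protein genes were called higher at ZT10, against 0.228% of all genes, and the list's median was 0.10. The medians were 0.051 for oxidative phosphorylation, 0.052 for the proteasome and -0.048 for the channel genes. Of the genes named from lists, Rplp1 was at 0.12 (adjusted p = 0.068), Atp5k at 0.17 (0.17), Atp5e at 0.14 (0.17), and Acaca at -0.088 (0.27) in that fit, none past the test. Cacna1e was at -0.11 and Kcnma1 at -0.15. Crabp1 (0.27), Elovl6 (-0.16), Grm7 (-0.17), Herpud1 (0.15), Hspa4l (-0.15) and Mt1 (0.29) also lost their calls, with adjusted p from 0.074 to 0.19. The differences of Elovl6 and Grm7 changed little from the main fit (-0.17 and -0.18). Of 17 RNAs listed as signs of RNA quality, the 7 matched in the table were tested (none is encoded by mitochondrial DNA). None was called, and their sum overlapped between the times (59755 to 83310 CPM at ZT10, 53436 to 82208 CPM at ZT22, none at 0 in all libraries). The 3 ribosomal and related RNAs had a median difference of 0.17, with Mir6236 at 0.58 ± 0.13 (adjusted p = 0.051). The 4 long nuclear RNAs Malat1, Meg3, Neat1 and Snhg11 had a median of -0.085. The part of RNA quality or library making in the length trend was not tested.

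**Figure D3:**
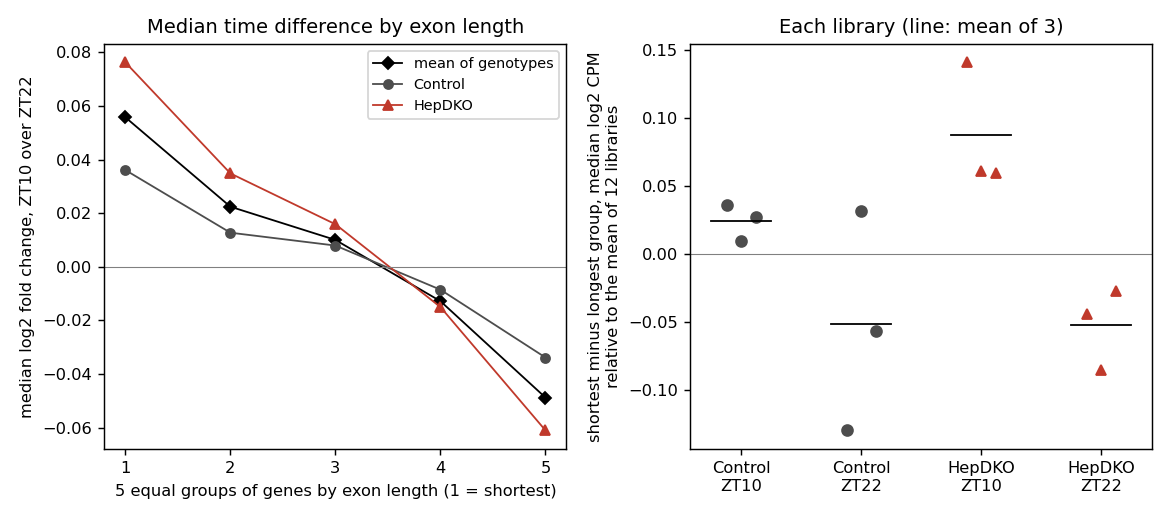
Left, median log2 difference (ZT10 over ZT22) in 5 equal groups of genes from the shortest to the longest exons, for Control, HepDKO and their mean. Right, each library's median level of the shortest group minus that of the longest, in log2 CPM relative to the mean of the 12 libraries, with lines for the mean of 3. Medians fall from 0.056 in the shortest group to -0.049 in the longest, and 5 of the 6 ZT22 libraries lie under 0.

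Genes that respond to glucocorticoids, whose blood level in mice peaks near the start of the dark phase, depended on 1 library. With all 12 libraries, 1 of 22 listed genes was called (4.55%, against 0.475%), the metallothionein gene Mt1, higher at ZT10 at 154, 177 and 185 CPM against 116, 127 and 172 CPM (0.36 ± 0.071, adjusted p = 0.034). Mt1 stayed called in 5 of 12 fits that left out a library. Without Control ZT22 replicate 1, 9 of the 22 were called, all higher at ZT10 (40.9%, against 0.821% of all genes in that fit), and the list's median was 0.30 in place of 0.082. Sgk1, a kinase gene that these hormones induce, measured 79.2, 71.8 and 80.1 CPM in Control and 58.5, 55.2 and 59.8 CPM in HepDKO libraries at ZT10. At ZT22 it measured 143, 44.9 and 39.8 CPM in Control, replicate 1 first, and 29.2, 32.3 and 33.3 CPM in HepDKO. All ZT22 libraries but that one lay under all ZT10 libraries. The difference was 0.42 ± 0.33 (adjusted p = 0.60) with it and 0.87 ± 0.05 (SE, adjusted p = 8.59e-13) without it. Tsc22d3, which encodes the mediator GILZ, had 144 CPM in that library, against 60.5 to 78.5 CPM in the other ZT22 libraries and 93.3 to 128 CPM at ZT10. Its difference was 0.43 ± 0.17 (adjusted p = 0.30) with it and 0.62 ± 0.056 (SE, adjusted p = 6.75e-07) without it. Klf9 gave 0.31 ± 0.13 (adjusted p = 0.30) with that library and 0.45 ± 0.041 (SE, adjusted p = 1.97e-08) without it. Fkbp5, a co-chaperone of the receptor, gave 0.15 ± 0.24 (adjusted p = 0.83) with it and 0.43 ± 0.089 (SE, adjusted p = 0.034) without it. The other called members without that library were Mt1, Mt2, Nfkbia, Arrdc2 and Ddit4. In all 12 libraries Nr3c2, the mineralocorticoid receptor gene, was at 0.20 ± 0.059, Mt2 at 0.44 ± 0.16 and Angptl4 at -0.42 ± 0.14, none past the test.

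**Figure D4:**
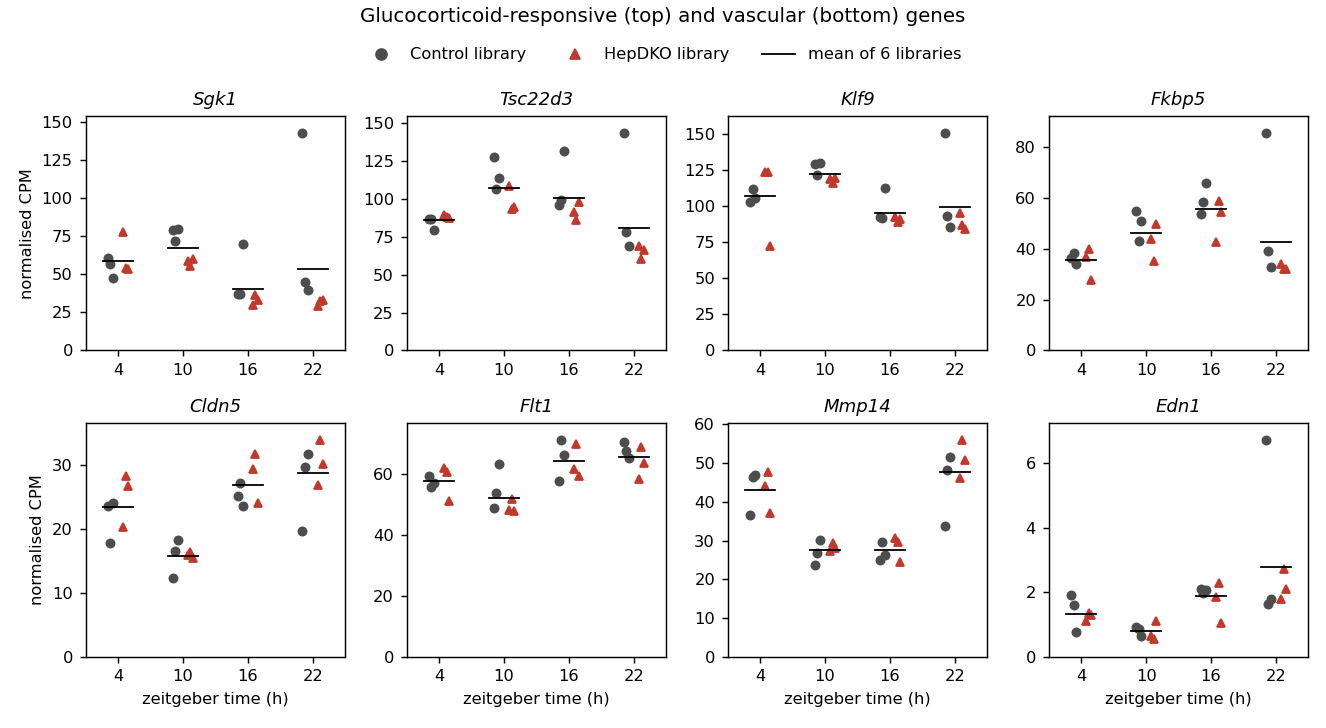
Normalised CPM in the 24 arcuate libraries against zeitgeber time in hours, for the glucocorticoid-responsive genes Sgk1, Tsc22d3, Klf9 and Fkbp5 (top) and the vascular and matrix genes Cldn5, Flt1, Mmp14 and Edn1 (bottom). Circles are Control libraries, triangles HepDKO libraries and lines the mean of 6. Control ZT22 replicate 1 is the highest ZT22 library in each panel of the top row, with Sgk1 at 143 CPM, and also for Edn1 and Flt1.

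The defining genes of the arcuate circuits did not pass the test. None of 27 feeding-circuit genes was called in either direction (median 0.050, or -0.020 without both libraries that stood apart). Without Control ZT22 replicate 2, 1 was called higher at ZT10 (against 1.94% of all genes in that fit), and without Control ZT10 replicate 3, 1 higher at ZT22 (against 0.508%). The orexigenic peptide genes were at 45.4 ± 3.30 CPM at ZT10 and 41.3 ± 3.73 CPM at ZT22 (SD, n = 6 per time) for Npy and at 17.9 ± 2.81 and 17.5 ± 2.61 CPM for Agrp. Pomc, the melanocortin precursor, was at 74.03 ± 13.00 and 64.02 ± 21.95 CPM, and Cartpt at 113 ± 10.4 and 106 ± 13.9 CPM. All 4 overlapped between the times. Lepr, the leptin receptor, had the lowest adjusted p of the list, 0.14, with a difference of -0.28 ± 0.094, followed by the amylin co-receptor Ramp3 (-0.60 ± 0.22) and the transcription factor Otp (0.21 ± 0.084). None of 19 neuroendocrine genes was called either (median 0.12, or 0.054 without both libraries that stood apart, with 1 called higher at ZT10 without Control ZT22 replicate 2, against 1.94%), among them Sst (0.19 ± 0.13), Ghr (0.11 ± 0.059), Ddc (0.12 ± 0.062) and Tac2 (0.13 ± 0.089). Of 20 tanycyte and thyroid hormone genes, 1 was called (5%, against 0.475%): Crabp1, which encodes a retinoic acid carrier, was higher at ZT10 (0.36 ± 0.089, adjusted p = 0.045), with Vim, the vimentin gene, at 0.20 ± 0.06. Crabp1 stayed called in only 2 of 12 fits that left out a library, and 2 members were called without Control ZT22 replicate 2 (against 1.94%).

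Among stress and metabolic lists, a single member or none was usually called. Of 17 heat-shock genes, 16 had a negative difference (median -0.082) and 1 was called (5.88%, against 0.627%), the chaperone gene Hspa4l (-0.21 ± 0.044, adjusted p = 0.019). Hsp90aa1 was at -0.16 ± 0.042, Stip1 at -0.24 ± 0.06 and Chordc1 at -0.27 ± 0.071, with adjusted p from 0.063 to 0.088. Without HepDKO ZT10 replicate 3, 5 heat-shock genes were called higher at ZT22, against 0.476% of all genes in that fit. The count was 3 without Control ZT10 replicate 3 or Control ZT22 replicate 2, and 2 without HepDKO ZT22 replicate 3. It was 0 without Control ZT10 replicate 1, HepDKO ZT10 replicate 1 or 2 or HepDKO ZT22 replicate 1 or 2, and Hspa4l stayed called in 7 of 12 such fits. The list's median was -0.15 without Control ZT10 replicate 3. Outside the list, the small heat-shock protein gene Hspb8 was called higher at ZT10 (0.26 ± 0.061, adjusted p = 0.037). None of 9 temperature-sensitive genes was called: the cold-inducible Cirbp was at 0.39 ± 0.12 (adjusted p = 0.18) and Rbm3 at 0.33 ± 0.11 (adjusted p = 0.17). Without HepDKO ZT10 replicate 3, Rbm3 was called higher at ZT10 (0.39, adjusted p = 0.040, against 0.338% of all genes in that fit), and without Control ZT10 replicate 3, 1 of the 9 was called higher at ZT22 (against 0.508%). None of 24 immediate early genes, markers of recent neuronal activity, was called, with Ier2 at -0.37 ± 0.15 and Npas4 at -0.22 ± 0.14.

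Of 29 genes of lipid and glucose metabolism, 1 was called higher at ZT10 (3.45%, against 0.475%) and 2 higher at ZT22 (6.90%, against 0.627%). The mitochondrial carrier Ucp2 was at 98.4, 101 and 112 CPM at ZT10 and 77.2, 87.2 and 96.6 CPM at ZT22 (0.25 ± 0.05, adjusted p = 0.014). Acaca, the acetyl-CoA carboxylase of fatty acid synthesis (-0.17 ± 0.038, adjusted p = 0.025), and the fatty acid elongase Elovl6 (-0.17 ± 0.041, adjusted p = 0.039) were higher at ZT22. Each of the pair stayed called in 4 of 12 fits that left out a library, and Ucp2 in 9. The ZT10 count ran from 0, without HepDKO ZT10 replicate 1 or HepDKO ZT22 replicate 1 or 2, to 2, without Control ZT22 replicate 1. The ZT22 count was 3 without Control ZT22 replicate 2 and 1 without Control ZT10 replicate 2 or HepDKO ZT22 replicate 3. It was 0 without Control ZT10 replicate 1 or 3, Control ZT22 replicate 3, HepDKO ZT10 replicate 1 or 2 or HepDKO ZT22 replicate 1 or 2. The glycolytic regulator Pfkfb3 was at -0.15 ± 0.045. In the cholesterol list 1 of 26 was called (3.85%, against 0.627%), the sterol carrier Stard4, higher at ZT22 (-0.25 ± 0.054, adjusted p = 0.027). Herpud1, a gene of endoplasmic reticulum stress, was the only one called of 21 genes of that list (4.76%, against 0.475%). Its difference was 0.19 ± 0.045 (adjusted p = 0.039), and the chaperone Hsp90b1 was at -0.12 ± 0.039. Stard4 stayed called in 6 and Herpud1 in 3 of 12 fits that left out a library.

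Apart from the endothelial list, no member of the lists for astrocytes, oligodendrocytes, their precursors, microglia, pericytes and meninges, ependyma, choroid plexus, pituitary, blood, general neurons or neighbouring nuclei was called in the fit of all 12 libraries. Without Control ZT22 replicate 2, 2 microglial, 1 choroid plexus and 1 neighbouring-nuclei marker were called higher at ZT10 (against 1.94% of all genes) and 1 pericyte or meningeal marker higher at ZT22 (against 2.21%). Without Control ZT22 replicate 1, 1 oligodendrocyte and 1 precursor marker were called higher at ZT22 (against 0.953%). Summed microglial markers ran from 288 to 316 CPM at ZT10 and from 258 to 312 CPM at ZT22, and 9 of 10 were positive, with C1qc at 0.24 ± 0.069 (adjusted p = 0.088). Summed oligodendrocyte markers ran from 3302 to 4629 CPM and from 3951 to 5942 CPM, where 5942 CPM is Control ZT22 replicate 1 and the other ZT22 libraries reached 4232 CPM. Markers of neighbouring nuclei ran from 835 to 1080 CPM and from 618 to 1176 CPM. Each of these sums overlapped between the times.

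Calls made in Control were shared by HepDKO, which gave more calls. In Control alone 9 genes were called (0.057%), Dbp, Nr1d1, Ifit3, Nr1d2, Per2, Per3, Arntl, Kank1 and Id2, and 890 had an unadjusted p under 0.05. In HepDKO alone 55 were called (0.348%), 21 higher at ZT10 and 34 higher at ZT22, and 2047 had an unadjusted p under 0.05. With no difference in any gene, 789 would be expected under 0.05 in each genotype. All 9 Control calls were called in HepDKO in the same direction. Of the 55 HepDKO calls, 53 had the same direction in Control, 36 of them with an unadjusted p under 0.05, and over all genes 62.1% had the same direction. The Control difference was the smaller in 50 of the 55, with medians of 0.38 in HepDKO and 0.17 in Control, and 20 had an unadjusted p under 0.05 for the genotype difference. Choosing the genes on their HepDKO values favours these counts. Dbp differed by 1.13 ± 0.091 in Control and 1.19 ± 0.091 in HepDKO (SE). Arntl differed by -0.49 and -0.46, and Id2 by -0.49 and -0.49. Without Control ZT22 replicate 1 the counts were 19 and 376, and without both libraries that stood apart 20 and 330.

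No gene passed the test of the difference between genotypes in the edgeR quasi-likelihood fit (0% called, lowest adjusted p 1.00, 522 genes with an unadjusted p under 0.05), and DESeq2 called 0 as well. All 174 genes called over both genotypes had the same sign in each, and 153 had an unadjusted p under 0.05 in each. Calling the genes on the mean of genotypes favours both counts. The HepDKO difference was the larger in 140 and the Control difference in 34, with median absolute log2 differences of 0.28 and 0.20. The trend over exon length was also steeper in HepDKO. In the shortest group of genes the median log2 difference was 0.076 in HepDKO and 0.036 in Control, and in the longest -0.061 and -0.034. The part of this trend in the larger HepDKO differences was not tested. An unadjusted p under 0.05 for the genotype difference was found for 8 of the 174 (4.60%), against 3.31% of all genes. Ucp2 was 1 of them, at 0.10 in Control and 0.40 in HepDKO (unadjusted p = 0.0011), and Trib1 another, at 0.30 and 0.74 (unadjusted p = 0.018). Among genes with the lowest unadjusted p were the kinase Hipk2, at 0.03 and -0.38, the mitochondrial lyase Clybl, at -0.18 and 0.47, and Mdga1, none past the adjustment. Pomc was at -0.20 in Control and 0.69 in HepDKO and Cartpt at -0.10 and 0.30, with unadjusted p of 0.017 and 0.0028 for the genotype difference and adjusted p of 1.00. Equal responses are not shown by this: the standard error of a difference had a median of 0.098 log2 units among the 174 genes.

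**Figure D5:**
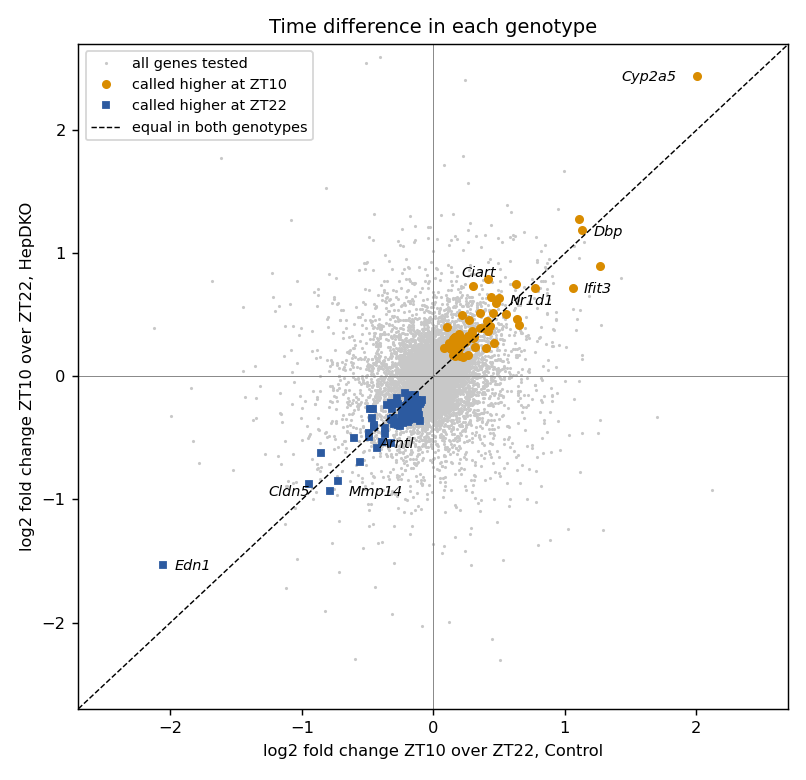
Log2 difference, ZT10 over ZT22, in Control (horizontal) against HepDKO (vertical) for 15783 genes, of which 3 lie outside the axes. Orange circles are genes called higher at ZT10 and blue squares genes called higher at ZT22 over both genotypes, and the dashed line marks equal differences. All 174 called genes share their sign in both genotypes, partly because genes were called on their mean.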

How the data were processed

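The deposited table held raw counts per gene symbol, which the authors made from reads processed with FastQC 0.11.7, Trim Galore 0.6.10 and STAR 2.7.10b on mm10, per the submitters' processing notes. The counting tool, annotation and strand setting are not given in the sources used here. Libraries were grouped by the labels. Counts were analysed with edgeR 4.0.16 in R 4.3.3 (TMM factors, filterByExpr over 4 groups, robust quasi-likelihood fit). The main model had genotype and time. Contrasts of 4 group means gave Control, HepDKO and their difference. P-values were adjusted over 15783 genes (Benjamini-Hochberg), with a threshold of 0.05. CPM are normalised for TMM. Alternatives were DESeq2 1.42.0, limma 3.58.1, sva 3.50.0, RLE factors, no filter, a replicate block, group means, all 24 arcuate libraries and each library left out. Leaving out both libraries that stood apart and removing the exon-length trend were chosen after seeing the data.

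Members and gene lists were chosen with earlier results of these data known. The text names the clock genes, the 15 genes of lowest p in each direction, up to 4 of lowest p per pathway list and 3 per marker list, and 5 per genotype test. Cyp2a5, Txnip, Edn1, Dtx4, Npas3, Agrp, Pomc, Cartpt, Sgk1, Tsc22d3, Klf9, Fkbp5, Nfkbia, Arrdc2, Ddit4, Slc6a3, Ddx3y, Kcns3, Kcna6, Atp5md, Ndufa13 and Hspb8 were named after their values were seen. Of list symbols, 10 were not matched in the table. Every pair of replicates differed by more than sampling noise (chi-square over degrees of freedom at least 3.22). In simulated counts for the mean of genotypes (15783 genes), 51% of 1.25-fold and 75% of 1.5-fold changes were recovered, with 7 false among 147 calls. For the genotype difference, 45% of 1.5-fold and 64% of 2-fold changes were recovered, with 15 false among 124 calls. The 7 leave out genes simulated with a genotype difference, while the 15 cover every gene simulated without one. The simulated counts had no length trend and no library that stood apart, so these rates need not hold for the data. Promoters are RefSeq's, build GRCm38.p6. Some genes that this rule selects are not reported here.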

Additional observations from a re-analysis of the deposited data

How the results depend on the processing

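Counts are genes called, main values first. For the mean of genotypes (174, of them 75 higher at ZT10 and 99 at ZT22), DESeq2 gave 418 (165 and 253), all 24 arcuate libraries 36 (18 and 18), 1 surrogate variable 361 (173 and 188), limma-voom 290 (127 and 163), leaving out both libraries that stood apart 281 (124 and 157) and removing the exon-length trend 68 (36 and 32). For Control (9), DESeq2 gave 22, no filter 16, 1 surrogate variable 33 and leaving out both libraries 20. For HepDKO (55), DESeq2 gave 216, no filter 118, all 24 libraries 14, 1 surrogate variable 295, leaving out both libraries 330 and removing the length trend 24.

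Leaving out each library in turn gave 43 to 661 genes for the mean of genotypes (21 to 309 higher at ZT10 and 22 to 352 higher at ZT22), 3 to 19 in Control, 9 to 376 in HepDKO and 0 to 1 for the genotype difference. The 1 gene was Zfhx4, without Control ZT22 replicate 1. The Control count was 3 without Control ZT10 replicate 1 or 2, and 4 without Control ZT22 replicate 3, HepDKO ZT10 replicate 1 or HepDKO ZT22 replicate 1 or 3. The HepDKO count was 9 without HepDKO ZT22 replicate 2, 12 without HepDKO ZT10 replicate 1, 16 without HepDKO ZT10 replicate 2, 21 without HepDKO ZT22 replicate 3, 25 without Control ZT10 replicate 2 and 36 without Control ZT10 replicate 1. It was 89, 129 and 376 without Control ZT22 replicates 3, 2 and 1.

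With the replicate number as a block, 288 genes were called for the mean of genotypes (132 and 156) and 161 in HepDKO. Of the 174 main calls, 172 stayed called. Some named genes outside the main calls were then called too. Among them were Cacna1e (adjusted p = 0.0051), Bhlhe41 (0.0048), Rbm3 (0.0063), Chordc1 (0.0085), Stip1 (0.023) and Vim (0.038). The labels do not tie the numbers to shared mice or days, so the main model did not pair the libraries by number. Correlations between libraries with the same number ran from -0.14 to 0.18 (5 of 18 over 0.1), with a median of 0.070. The median between libraries with different numbers was -0.024. As a hint from the data, 10 of 12 libraries correlated best with their own number.

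Signs changed for genes with differences near 0: Csnk1d (-0.016 with 1 surrogate variable, -0.0078 with limma-voom, -0.027 without both libraries), Agrp (-0.016 with 1 surrogate variable, -0.070 without both libraries, -0.050 without the length trend) and Rorb (0.0037 without both libraries, 0.034 without the length trend). With 1 library left out the differences ran from -0.018 to 0.033 for Csnk1d, -0.021 to 0.10 for Agrp, -0.051 to 0.018 for Rorb, -0.0035 to 0.052 for Cry2 and -0.0058 to 0.060 for Fbxl21. All 174 called genes kept their direction in every fit, and 40 were called in all 12 that left out a library. Each fit reused libraries on which the 174 were called, which favours the same direction. At 15483922 to 18550117 counts per library, genes near 1 CPM such as Inmt, Cyp2a5 and Edn1 rest on few counts.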
